A study of Mus musculus with 28 samples.

Results

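The LepRb bead libraries of ob/ob mice were compared with those of wild-type mice 10 h after injection. The 7 bead libraries of 10 h were taken by their labels from the 28 libraries of the series: 2 vehicle libraries and 1 leptin library of ob/ob mice, and 1 vehicle library and 3 leptin libraries of wild-type mice. All mice, wild type included, carried the LepRb eGFP-L10a reporter, in which a ribosomal protein tagged with eGFP marks the ribosomes of cells that express LepRb, the long signalling form of the leptin receptor. The ob/ob mice were in addition homozygous for the Lep ob allele and make no functional leptin. Male and female mice of 10 to 13 weeks lost access to food at the start of the light phase and received metreleptin, a leptin analogue, at 5 mg per kg intraperitoneally, or vehicle (saline in the protocol). Hypothalami were taken 10 h later, and RNA was recovered from the tagged ribosomes (beads) and from what remained (depleted RNA). The labels do not say how many mice went into a lysate, and p-values measure the spread between lysates, which may be in part technical.

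Leptin is secreted by fat tissue and reports energy stores to hypothalamic neurons, where LepRb signals through JAK2 and the transcription factor STAT3. In the arcuate nucleus leptin raises Pomc, the precursor of the satiety peptide alpha-MSH, and lowers Agrp and Npy, which drive feeding. STAT3 induces its own feedback inhibitor, Socs3. Mice without leptin overeat, become obese and have high circulating corticosterone.

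Genotype and sequencing run cannot be told apart. All wild-type libraries of 10 h were sequenced in 1 run and all ob/ob libraries in another, so no within-run value of the genotype difference exists. The 3 h beads of wild-type mice, from a further run, lent their spread to the test, and their range is given beside the main genes. Total counts were 23567997 to 42267040 in the wild-type beads of 10 h and 21277982 to 25229414 in the ob/ob beads. Levels are CPM, the counts relative to library size after TMM scaling, and differences are log2 of ob/ob over wild type, averaged over vehicle and leptin with equal weight unless a treatment is named. In all 7 bead libraries Xist, expressed from the inactive X, was at 9.54 to 23.7 CPM and the Y-linked Ddx3y at 31.3 to 65.4 CPM, so tissue of both sexes was present in each.

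The beads carried the markers of LepRb neurons in both genotypes. Lepr itself, which encodes the receptor, was at 8.68 to 11.7 CPM in the 4 wild-type beads and at 8.87 to 10.9 CPM in the 3 ob/ob beads, against 1.92 to 3.33 CPM in the 7 depleted libraries of 10 h. Its level in beads did not pass the test between genotypes (log2 difference -0.09, SE 0.202, adjusted p = 0.949). Pomc and Agrp, which mark the main leptin-sensitive populations of the arcuate nucleus, were also several times higher in beads than in depleted RNA in all 7 lysates. Lep transcripts were near the limit of detection, with 0 counts in 6 of the beads and 1 count in the remaining ob/ob vehicle bead. The mutation could therefore not be checked from this gene, which the hypothalamus hardly expresses.

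Of 18212 genes tested in beads, 23 were higher in ob/ob (0.126%) and 63 lower (0.346%) at an adjusted p under 0.05, where 1782 had an unadjusted p under 0.05. The lower genes were led by Pomc and held several other peptides and receptors of LepRb neurons, and the higher genes included metallothioneins and other genes that glucocorticoids induce. Of the 23 higher genes 19 differed by at least 2-fold, and of the 63 lower genes 41 did. In 23 of the 23 and in 62 of the 63, the ob/ob libraries lay on the same side of the wild-type libraries within both treatments. These genes were picked by a test on the same libraries, so this count is not separate support for the calls. The 2 groups of 1 library carry much of the test: without the wild-type vehicle bead, which leaves the leptin contrast, 1 higher and 2 lower genes were called, and without the ob/ob leptin bead, which leaves the vehicle contrast, 3 and 10. Leaving out any other library of 10 h gave 10 to 20 higher and 30 to 47 lower genes. Of the genes named below, Pomc kept its call in all 7 such fits. Nts, Glp1r, Cdkn1a, Fkbp5, Hbb-bs and Traf3ip3 lost it without the wild-type vehicle bead and Mt2 and Ifi27 without the ob/ob leptin bead. Anxa2, Plagl1, Vwa5a, Cd44, Tmem176a, Tmem176b, Mt1, Fam107a, Alkal2 and Ccl17 lost it without either of these. Npy2r lost it without the wild-type vehicle bead or ob/ob vehicle bead 2, and Hba-a1 and Itgad without any of those 3. Prdm12 kept its call in 3 of the 7 fits, Cartpt, Serpina3n, Stat3 and Lyve1 in 2, Pdyn and Ighm in 1 and Ddit4 in 0.

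**Figure D1:**
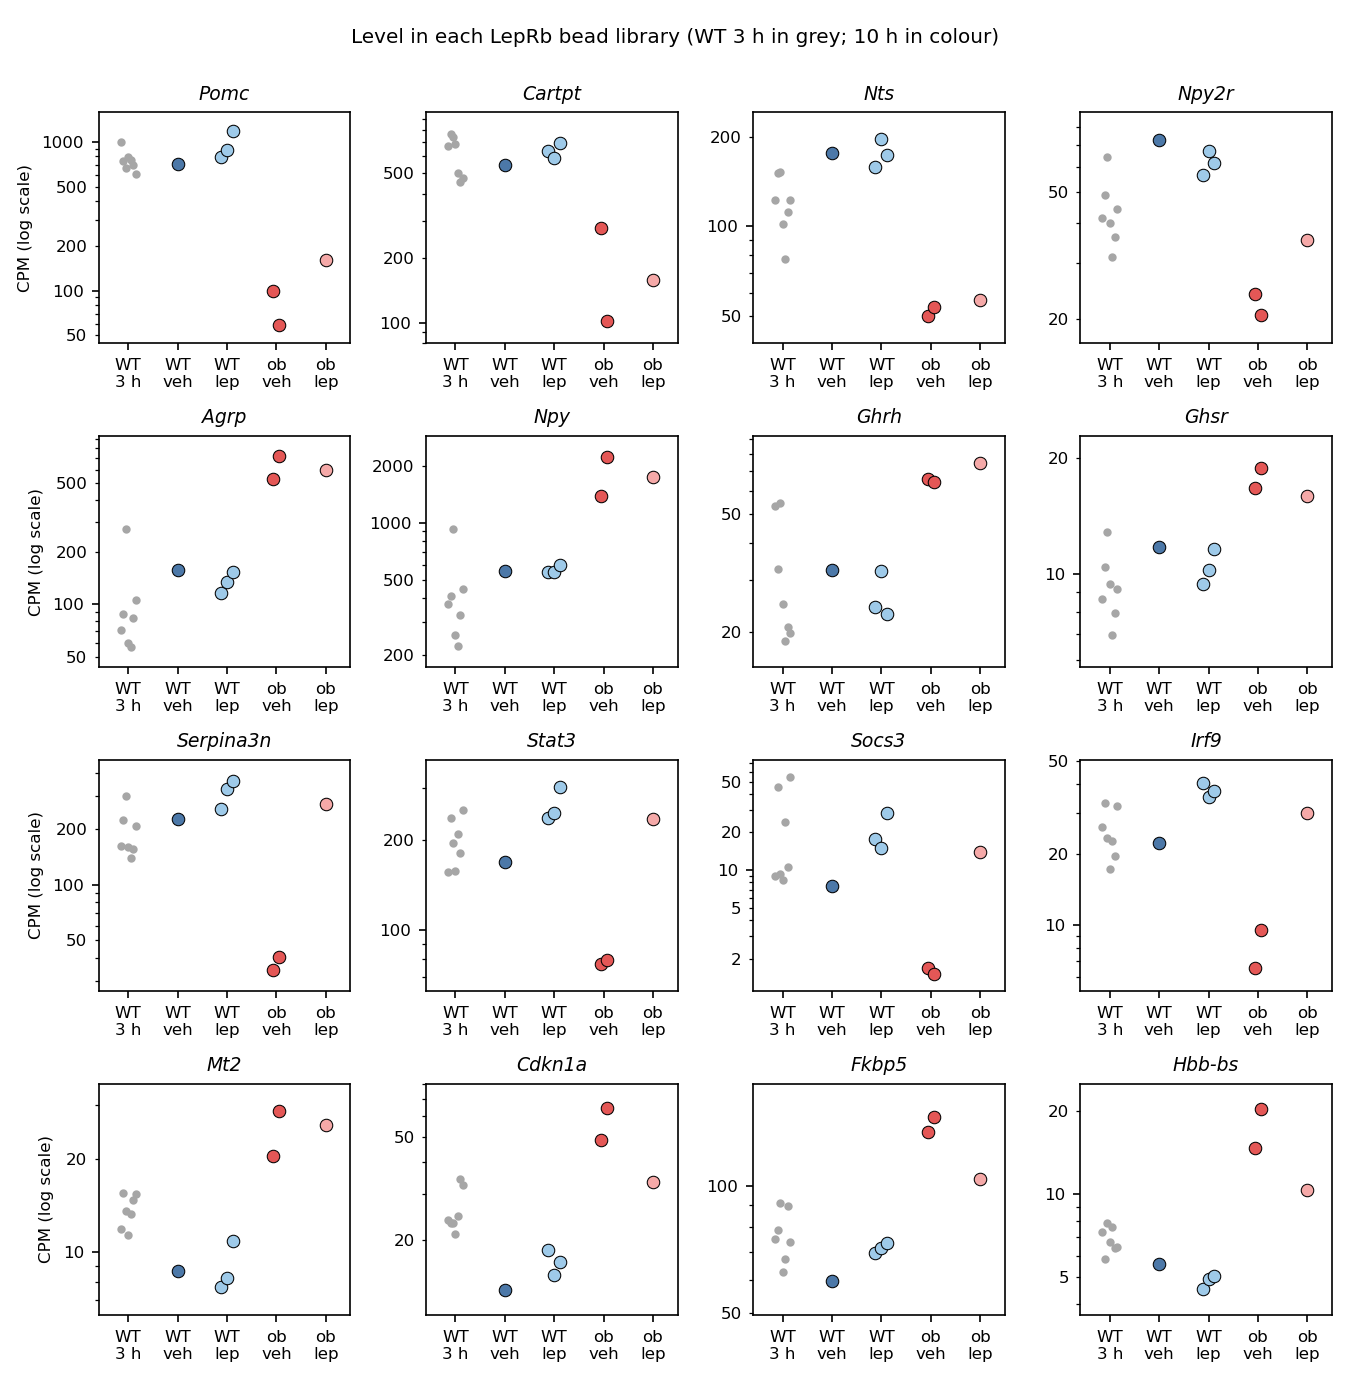
Level of 16 genes in each LepRb bead library, in TMM-scaled CPM on a log axis; each point is 1 library, with wild-type beads of 3 h in grey, wild-type beads of 10 h in blue and ob/ob beads of 10 h in red (darker for vehicle, paler for leptin). In the top row all 3 ob/ob points lie below the wild-type points of 10 h, in the second row above them, and in the third row the ob/ob leptin point lies far above both ob/ob vehicle points.

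Pomc showed the smallest p of all genes. Its level was 704 CPM in the wild-type vehicle bead, 787, 876 and 1185 CPM in the wild-type leptin beads, 99.0 and 59.0 CPM in the ob/ob vehicle beads and 161 CPM in the ob/ob leptin bead. Every ob/ob library was thus far below every wild-type library, the 3 h beads (610 to 1000 CPM) included. The fitted level was 7.24-fold lower in ob/ob (log2 difference -2.86, SE 0.234, adjusted p = 0.000127), and the difference passed the test within vehicle (-3.16, adjusted p = 0.000738) and within leptin (-2.56, adjusted p = 0.0295). Pomc lies on chromosome 12 (GRCm38, 3954951 to 3960642). In bulk RNA, fewer cells of a type and less RNA per cell cannot be told apart, here and below.

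In depleted RNA the Pomc values split by library. The wild-type vehicle library had 17.4 CPM and the ob/ob vehicle libraries 7.91 and 6.56 CPM, while the ob/ob leptin library had 51.0 CPM against 21.0 to 25.4 CPM in the wild-type leptin libraries. That ob/ob leptin lysate also stood apart in growth hormone, Gh, a pituitary transcript, with 129 CPM in its depleted library and 21.1 CPM in its bead, where no other library of 10 h exceeded 1.61 CPM in depleted RNA or 0.361 CPM in beads. Pituitary cells also make Pomc, and the part of such tissue in the Pomc value of that bead was not tested. Without that lysate the bead comparison rests on vehicle alone, where the Pomc difference was -3.16.

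The other members of the POMC list that passed the test were also lower in ob/ob. Of 17 genes linked to POMC neurons 5 were lower and 0 higher, with a list median of -0.52 against 0.01 over all genes tested. For this and later list counts, the shares over all genes tested were 0.346% lower and 0.126% higher. Of the 17 members 13 had estimates below 0 and 4 above 0, the largest being 3.05 in a member that was not called. Cartpt, the precursor of the satiety peptide CART made in many POMC neurons, was at 548 CPM in the wild-type vehicle bead, 638, 591 and 695 CPM in the wild-type leptin beads, 276 and 102 CPM in the ob/ob vehicle beads and 157 CPM in the ob/ob leptin bead. The log2 difference was -1.78 (SE 0.336, adjusted p = 0.047), but the 2 ob/ob vehicle beads differed 2-fold or more from each other.

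Glp1r encodes the receptor of the satiety hormone GLP-1. It was at 28.7 CPM in the wild-type vehicle bead, 20.2, 23.3 and 22.8 CPM in the wild-type leptin beads, 11.6 and 11.5 CPM in the ob/ob vehicle beads and 14.8 CPM in the ob/ob leptin bead (-0.95, adjusted p = 0.0111). Prdm12, a transcription factor that POMC neurons need to express Pomc, was at 14.1 to 23.9 CPM in wild-type and 7.35 to 7.56 CPM in ob/ob beads (-1.13, adjusted p = 0.0211). Anxa2, a calcium-dependent membrane-binding protein, was at 15.8 to 29.3 CPM in wild-type and 9.45 to 9.95 CPM in ob/ob beads (-1.08, adjusted p = 0.0121). Among the members that did not pass, the prohormone convertase genes Pcsk1 (-0.31, adjusted p = 0.491) and Pcsk2 (0.28, adjusted p = 0.732), which encode enzymes that cut POMC into its peptides, had small estimates of opposite sign.

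Agrp and Npy were higher in every ob/ob bead than in every wild-type bead, but their calls depended on which libraries set the spread. Agrp, the inhibitor of melanocortin receptors (chromosome 8, 105566698 to 105637393), was at 159 CPM in the wild-type vehicle bead, 116, 135 and 155 CPM in the wild-type leptin beads, 528 and 718 CPM in the ob/ob vehicle beads and 596 CPM in the ob/ob leptin bead. The log2 difference was 2.06 (SE 0.570) and did not pass the test, with an adjusted p of 0.241. The wild-type 3 h beads spanned 56.7 to 273 CPM, and with only the 7 beads of 10 h in the fit the adjusted p was 0.000134. It was 0.0344 with DESeq2 and 0.0591 with limma voom on all 14 beads. Agrp shares exon bases with Ctcf on the opposite strand, and the library kit does not mark strand.

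Npy, the orexigenic peptide made with Agrp, was at 558 CPM in the wild-type vehicle bead, 551, 553 and 597 CPM in the wild-type leptin beads, 1382 and 2220 CPM in the ob/ob vehicle beads and 1735 CPM in the ob/ob leptin bead (1.65, adjusted p = 0.235; adjusted p = 0.000938 with the 7 beads of 10 h alone). The values in ob/ob leptin lay between the values in ob/ob vehicle for both peptides. In depleted RNA both passed the test: Agrp was at 3.06 to 4.69 CPM in wild type and 12.6 to 18.3 CPM in ob/ob (2.04, adjusted p = 0.00184), and Npy at 17.4 to 23.2 CPM and 42.4 to 66.0 CPM (1.23, adjusted p = 2.59e-05).

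The AgRP list as a whole did not lean the way of these peptides. Of its 17 members 12 had estimates below 0, and the list median was -0.19. The only member called was Serpina3n, which was lower and is described with the leptin-regulated genes below. Ghsr, the ghrelin receptor, was at 9.47 to 11.8 CPM in wild-type and 16.0 to 18.9 CPM in ob/ob beads (0.60, adjusted p = 0.295). Npy1r, a receptor for NPY, was at 26.1 to 30.1 CPM in wild-type and 15.0 to 16.6 CPM in ob/ob beads (-0.77, adjusted p = 0.133). Neither passed the test. With DESeq2 and with the 7 beads of 10 h alone Npy1r passed and Ghsr did not, and with limma voom neither gene passed.

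Peptides and receptors of other LepRb neurons were lower where they passed the test. Of 24 such markers 3 were lower and 0 higher (median -0.34). The 3 were Nts, Pdyn and Glp1r, which is also on the POMC list. Nts, the precursor of neurotensin made by LepRb neurons of the lateral hypothalamus (chromosome 10, 102481756 to 102490486), was at 176 CPM in the wild-type vehicle bead, 159, 196 and 174 CPM in the wild-type leptin beads, 49.9 and 53.8 CPM in the ob/ob vehicle beads and 56.5 CPM in the ob/ob leptin bead. The 3 ob/ob values were close together and below all 11 wild-type beads, of which those of 3 h spanned 77.6 to 152 CPM (-1.70, SE 0.216, adjusted p = 0.00417). Pdyn, the precursor of dynorphin, was at 97.2 to 121 CPM in wild-type and 66.1 to 74.4 CPM in ob/ob beads (-0.70, adjusted p = 0.0296).

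Npy2r encodes the receptor through which the gut peptide PYY acts. It was at 72.5 CPM in the wild-type vehicle bead, 56.7, 66.9 and 61.6 CPM in the wild-type leptin beads, 23.9 and 20.6 CPM in the ob/ob vehicle beads and 35.5 CPM in the ob/ob leptin bead (-1.25, adjusted p = 0.0158). In the wild-type 3 h beads Npy2r spanned 31.4 to 64.1 CPM and Glp1r 13.6 to 27.7 CPM. The ob/ob leptin value of each gene lay within its 3 h range. The difference was -1.70 within vehicle and -0.80 within leptin for Npy2r, and -1.31 and -0.58 for Glp1r. Npy2r and Glp1r were the only 2 of 33 receptors for feeding signals that passed, and the median of those receptors was 0.03. Plagl1, an imprinted zinc finger gene, was at 233 to 290 CPM in wild-type and 92.8 to 133 CPM in ob/ob beads (-1.17). The neighbouring genes Tmem176a (59.2 to 77.9 against 18.2 to 27.8 CPM, -1.46, adjusted p = 0.00543) and Tmem176b (72.0 to 79.8 against 29.8 to 40.9 CPM, -1.08) encode membrane proteins; they overlap on opposite strands, so their reads cannot be told apart fully. Cd44, a hyaluronan receptor, was at 8.20 to 12.1 against 3.15 to 4.96 CPM (-1.23, adjusted p = 0.00929).

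Several hypothalamic peptides showed no call. Ghrh, growth hormone releasing hormone, was at 23.0 to 32.5 CPM in wild-type and 64.5 to 74.9 CPM in ob/ob beads (1.25, adjusted p = 0.250), with 18.7 to 54.7 CPM in the 3 h beads. With the 7 beads of 10 h alone its adjusted p was 0.00226. Crh, the corticotropin releasing hormone, had an estimate of 0.01 (SE 0.220, adjusted p = 0.998), Sst, somatostatin, of -0.35 (adjusted p = 0.555), Trh, the thyrotropin releasing hormone, of -0.45 (adjusted p = 0.343) and Prlh, prolactin releasing hormone, of -0.56 (adjusted p = 0.703). Kiss1 had 0 counts in all 7 beads, against a limit of 3 counts, which is 0.071 to 0.141 CPM.

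A set of leptin-regulated genes was low in the ob/ob vehicle beads and near wild-type levels in the ob/ob leptin bead. Serpina3n, a secreted serine protease inhibitor, was at 225 CPM in the wild-type vehicle bead, 255, 328 and 365 CPM in the wild-type leptin beads, 34.3 and 40.6 CPM in the ob/ob vehicle beads and 271 CPM in the ob/ob leptin bead. The difference was -2.59 within vehicle (adjusted p = 0.0435) and -0.22 within leptin (adjusted p = 0.940). Reads of near-identical Serpina3 copies may be split by the counting. Stat3, the transcription factor that LepRb activates, was at 169 CPM, then 238, 247 and 302 CPM, then 77.1 and 79.4 CPM, then 235 CPM in the same order (-1.11 within vehicle, adjusted p = 0.0441; -0.16 within leptin, adjusted p = 0.914).

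Socs3, Irf9 and Timp1 had the same order of values without passing the averaged test. With DESeq2 and with the 7 beads of 10 h alone Socs3 and Irf9 passed and Timp1 did not. With limma voom none of these genes passed. Socs3 was at 7.43 CPM in the wild-type vehicle bead, 17.7, 15.0 and 28.3 CPM in the wild-type leptin beads, 1.69 and 1.52 CPM in the ob/ob vehicle beads and 14.0 CPM in the ob/ob leptin bead (-1.38, adjusted p = 0.0716). Irf9 encodes a transcription factor that joins STAT dimers in the interferon response, and it shares exon bases with Rnf31. It was at 22.2 CPM, then 40.1, 35.2 and 37.3 CPM, then 6.59 and 9.49 CPM, then 30.0 CPM (-0.89, adjusted p = 0.0638). Timp1, a metalloproteinase inhibitor, was at 2.19 CPM, then 6.51, 7.35 and 11 CPM, then 0.211 and 0.608 CPM, then 10.1 CPM (-1.05, adjusted p = 0.284). In all 3 genes the ob/ob vehicle beads were the lowest of the 7. The ob/ob leptin bead stood within the range of the wild-type beads of both treatments. Against the wild-type leptin beads alone it was below each of them in Socs3 and Irf9, and within their range in Timp1.

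Over the 15 tested genes of the acute phase and leptin-regulated list, 3 were lower, 0 were higher, and the median was -1.31 within vehicle and -0.24 within leptin. The 3 were Serpina3n, Traf3ip3, which encodes a TRAF3-interacting protein (3.28 CPM, then 8.13, 6.70 and 8.65 CPM, then 0.211 and 0.418 CPM, then 2.39 CPM; -2.53, adjusted p = 0.00543), and Vwa5a (33.8 to 70.4 CPM in wild-type and 13.8 to 32.8 CPM in ob/ob beads; -1.05, adjusted p = 0.00915). Many list members were known to respond to leptin in these libraries, so the list is not independent evidence. Stat3 was the 1 of 25 JAK-STAT genes called, with a list median of -0.09. The difference between the 2 treatments was itself tested across all genes by the genotype by treatment contrast, and 0 of 18212 genes passed edgeR's test (0%), with 251 at an unadjusted p under 0.05; DESeq2 called 1 gene and limma voom 0. For Serpina3n that contrast was 2.37 (SE 0.5), for Stat3 0.95 (SE 0.249) and for Socs3 1.67 (SE 0.579), each with an adjusted p of 1.

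**Figure D2:**
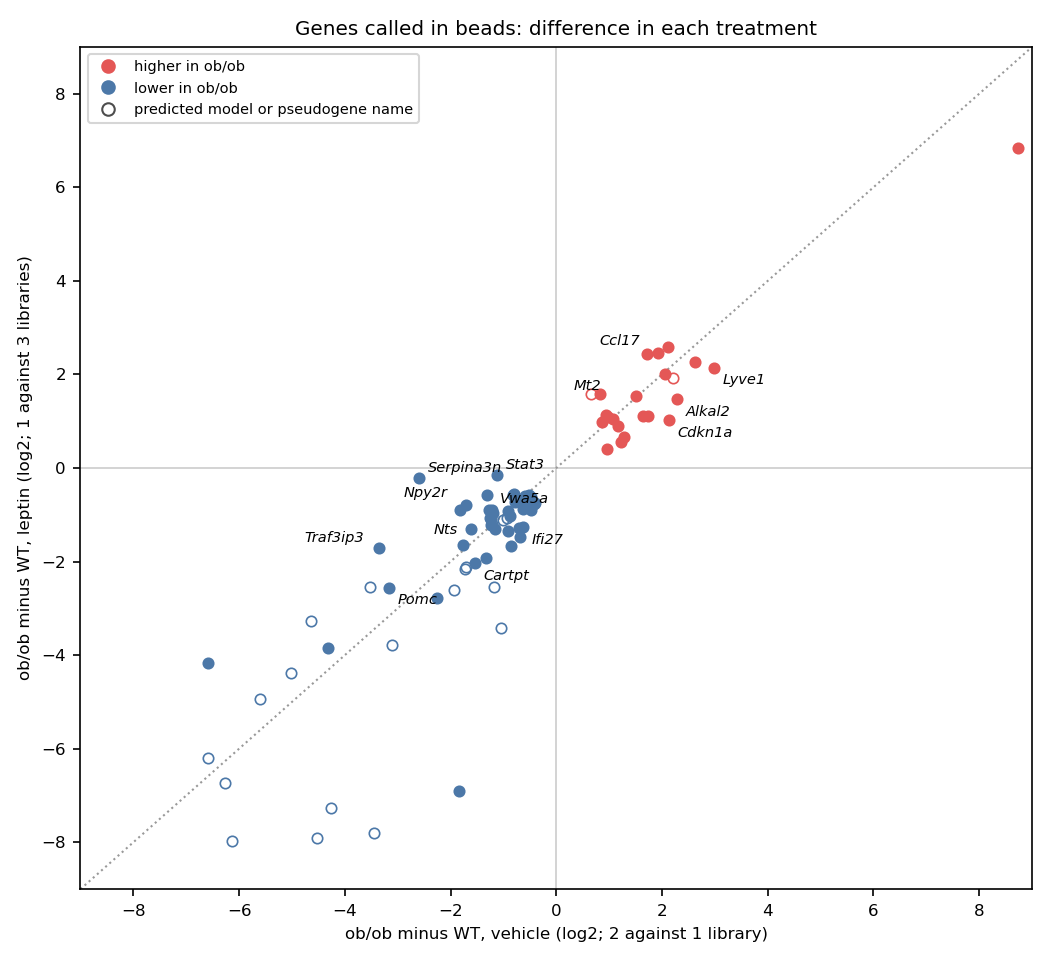
Log2 difference of ob/ob and wild type in vehicle beads (x axis) and in leptin beads (y axis) for the 86 genes called in the averaged comparison; red points were higher and blue points lower in ob/ob, open points are predicted gene models or pseudogene names, and the dotted line marks equal differences. Pomc, Nts and Mt2 lie close to the dotted line, while Serpina3n and Stat3 lie near 0 on the leptin axis.

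By treatment, 14 genes passed within vehicle (4 higher and 10 lower, 0.0769% of those tested) and 3 within leptin (0.0165%). The 3 within leptin were Mt2, which was higher, and Pomc and Ifi27, which were lower. Ifi27, an interferon-induced gene, was at 23.1 CPM in the wild-type vehicle bead, 31.4, 28.0 and 32.5 CPM in the wild-type leptin beads, 15.1 and 14.9 CPM in the ob/ob vehicle beads and 12.7 CPM in the ob/ob leptin bead (-0.95, adjusted p = 0.00388). It was the 1 of 27 genes of the interferon and antigen presentation list that was called; the list median was -0.24.

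Of 22 tested genes that glucocorticoids induce, 5 were higher in ob/ob beads, 0 were lower and 17 did not pass the test. In the list 19 had estimates above 0, and the list median was 0.62 in beads and 0.53 in depleted RNA. Mt2, a metallothionein that binds zinc and copper, was at 8.66 CPM in the wild-type vehicle bead, 7.68, 8.22 and 10.8 CPM in the wild-type leptin beads, 20.5 and 28.6 CPM in the ob/ob vehicle beads and 25.8 CPM in the ob/ob leptin bead. The ob/ob values were above all 11 wild-type beads (1.52, SE 0.179, adjusted p = 0.00388). Its neighbour Mt1, also a metallothionein, was at 109 to 124 CPM in wild-type and 196 to 257 CPM in ob/ob beads (1.03, adjusted p = 0.0048).

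Fkbp5, a co-chaperone of the glucocorticoid receptor, was at 59.5 CPM in the wild-type vehicle bead, 69.4, 71.4 and 73.3 CPM in the wild-type leptin beads, 134 and 145 CPM in the ob/ob vehicle beads and 104 CPM in the ob/ob leptin bead (0.89, SE 0.137, adjusted p = 0.00893). Cdkn1a, which encodes the cell cycle inhibitor p21, was at 12.8 to 18.3 CPM in wild-type beads of 10 h, 48.7 and 64.3 CPM in ob/ob vehicle and 33.5 CPM in ob/ob leptin (1.58, adjusted p = 0.00388), with 21.2 to 34.3 CPM in the 3 h beads. Ddit4, a stress-induced inhibitor of mTOR signalling, was at 28.1 to 39.2 and 48.0 to 55.3 CPM (0.69, adjusted p = 0.047), and its call was lost in each of the 7 fits that left out 1 library. All 5 also passed in depleted RNA, with differences of 0.53 for Mt2, 0.53 for Mt1, 0.99 for Fkbp5, 1.63 for Cdkn1a and 0.74 for Ddit4. Sgk1, a kinase induced by glucocorticoids, was at 42.3 to 46.9 and 67.8 to 119 CPM and did not pass (0.90, adjusted p = 0.207), with up to 99.7 CPM in the 3 h beads. It passed with DESeq2 and with the 7 beads of 10 h alone, and not with limma voom.

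The start-site regions of Socs3, Mt1 and Mt2 are shown because STAT3 is known to induce Socs3, whose values did not pass the test, and metal-responsive transcription is well known for Mt1 and Mt2, which were called. Each runs from 250 bases before to 50 after the start in RefSeq, GRCm38.p6, on the gene's strand. Capitals mark TTCNNNGAA, the STAT motif, in Socs3, and TGCACNC or TGCGCNC, the metal response motif, in Mt1 and Mt2, on either strand.
Socs3, chr11:117969317-117969616, minus strand: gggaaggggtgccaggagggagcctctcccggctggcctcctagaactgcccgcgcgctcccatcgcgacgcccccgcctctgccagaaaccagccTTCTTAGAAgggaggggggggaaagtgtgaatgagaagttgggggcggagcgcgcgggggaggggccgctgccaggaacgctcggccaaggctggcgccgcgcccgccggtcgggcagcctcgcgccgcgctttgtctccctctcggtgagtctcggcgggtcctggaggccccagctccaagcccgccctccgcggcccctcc
Mt1, chr8:94178839-94179138, plus strand: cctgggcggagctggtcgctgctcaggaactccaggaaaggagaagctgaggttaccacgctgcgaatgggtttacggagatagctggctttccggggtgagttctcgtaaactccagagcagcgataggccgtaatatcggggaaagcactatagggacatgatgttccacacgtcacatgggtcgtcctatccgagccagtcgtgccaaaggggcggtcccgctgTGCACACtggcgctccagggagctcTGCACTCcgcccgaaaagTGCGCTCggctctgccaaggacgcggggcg
Mt2, chr8:94172368-94172667, plus strand: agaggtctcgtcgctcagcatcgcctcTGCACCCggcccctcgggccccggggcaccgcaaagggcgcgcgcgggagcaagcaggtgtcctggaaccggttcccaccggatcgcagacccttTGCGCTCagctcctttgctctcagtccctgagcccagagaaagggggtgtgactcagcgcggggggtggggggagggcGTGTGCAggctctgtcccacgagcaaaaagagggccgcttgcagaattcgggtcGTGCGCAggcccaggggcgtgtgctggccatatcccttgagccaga
Socs3 held 1 STAT motif, TTCTTAGAA, at -154 to -146 from the start, and 8.3% of 32851 promoters of this length hold that motif, or 6.84% of the 16515 promoters of tested genes. The same windows of Pomc, Stat3 and Serpina3n held none. Irf9 has 2 such windows, of which 1 was searched and held none. Mt1 held 3 and Mt2 4 metal response motifs, and 11.1% of the promoters of tested genes hold at least 2, against 7.11% of all promoters. The full palindromic glucocorticoid response element was not in the Fkbp5 window, and 0.00913% of promoters hold it. A match describes letters in the window and not binding.

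Further genes with large differences had roles outside these groups. Fam107a, an actin-associated stress-responsive gene, was at 81.6 to 114 CPM in wild-type and 169 to 290 CPM in ob/ob beads (1.03, adjusted p = 0.00472). Alkal2, a ligand of the receptor tyrosine kinase ALK, was at 1.29 to 1.78 and 4.07 to 10.9 CPM (1.88, adjusted p = 0.00472), and overlaps Acp1 on the opposite strand. Ccl17, a chemokine, was at 1.07 to 1.99 and 3.23 to 7.53 CPM (2.18, adjusted p = 0.00929). Itgad, an integrin of leukocytes, was at 0.334 to 0.670 and 2.25 to 3.49 CPM (2.35, adjusted p = 0.0211), and Lyve1, a hyaluronan receptor of lymphatic endothelium and some macrophages, at 0.184 to 0.429 and 1.40 to 3.08 CPM (2.57, adjusted p = 0.0357). Ighm, the immunoglobulin M heavy chain, was at 4.82 to 8.09 and 1.97 to 3.38 CPM (-1.27, adjusted p = 0.0329).

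Among markers of other cell types, 2 erythrocyte genes passed the test and 0 of any other list did. The haemoglobin genes Hbb-bs (4.53 to 5.57 CPM in wild-type and 10.4 to 20.3 CPM in ob/ob beads; 1.38, adjusted p = 0.00388) and Hba-a1 (0.908 to 1.58 and 2.76 to 4.79 CPM; 1.43, adjusted p = 0.0260) were higher in ob/ob. The summed level of 5 erythrocyte markers was 7.53 to 9.33 CPM in wild-type beads of 10 h, 10.6 to 13.6 CPM in those of 3 h and 16.3 to 31.8 CPM in ob/ob beads. For 12 endothelial and mural markers, of which 12 had estimates above 0 and 0 were called, it was 21.2 to 37.0, 52.5 to 196 and 44.6 to 79.3 CPM. For 7 choroid plexus markers, of which 5 were tested, 5 had estimates above 0 and 0 were called, it was 11.4 to 16.8, 13.7 to 37.7 and 22.7 to 34.2 CPM. In both lists the ob/ob sums lay above the wild-type sums of 10 h and overlapped those of 3 h. For 12 astrocyte markers it was 720 to 934, 800 to 1539 and 789 to 1274 CPM, and for 12 microglia markers 23.8 to 51.2, 28.4 to 86.5 and 25.3 to 59.4 CPM; 0 of either list were called. None of these defining markers was at 0 in all 7 beads. The ob/ob vehicle bead 2 had the highest sum in the astrocyte, oligodendrocyte, microglia, endothelial and erythrocyte lists among the 7, and 0.505% of its counts were mitochondrial against 0.012% to 0.108% in the others. The part of such cells in the genes named above was not tested.

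**Figure D3:**
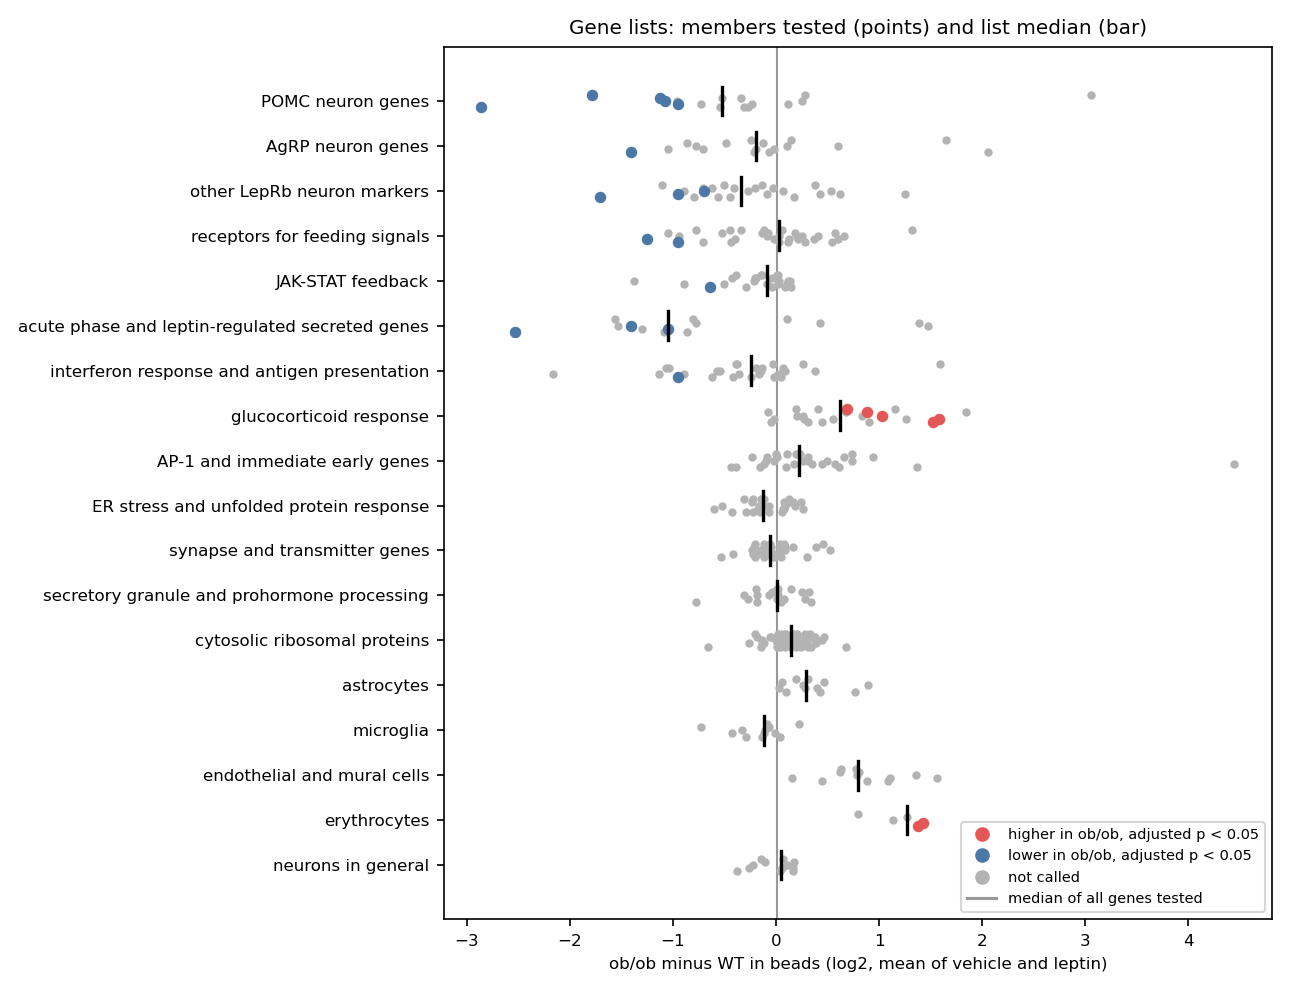
Log2 difference of ob/ob and wild type in beads for the tested members of 18 gene lists (points; red higher and blue lower with an adjusted p under 0.05, grey not called), with the list median as a black bar and the median of all genes tested as a grey line. The POMC and acute phase lists have their coloured points and medians to the left, and the glucocorticoid and erythrocyte lists to the right.

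Other lists held no called gene. Among these were immediate early genes (30 tested, median 0.22), ER stress and unfolded protein response (28, -0.12), cholesterol synthesis (24, 0.06), the circadian clock (20, 0.11), synapse and transmitter genes (32, -0.05), secretory granule genes (20, 0.01), nuclear subunits of the respiratory chain (38, 0.00) and cytosolic ribosomal proteins (54, 0.15). So were the growth hormone axis (14, 0.06), the thyroid axis (14, 0.09) and mitochondrially encoded subunits (7, 0.19). The median of immediate early genes was 0.51 within vehicle and -0.10 within leptin, and that of mitochondrially encoded subunits 1.32 and -0.97. Atf3, the immediate early gene that the series title names, was at 2.60 CPM in the wild-type vehicle bead, 9.78, 11.9 and 13.8 CPM in the wild-type leptin beads, 1.27 and 4.14 CPM in the ob/ob vehicle beads and 6.13 CPM in the ob/ob leptin bead (-0.44, adjusted p = 0.799). The genotype groups overlapped.

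Depleted RNA of the same lysates showed which differences were also present outside the tagged ribosomes. There 519 of 19115 genes were higher in ob/ob (2.72%) and 545 lower (2.85%), again with genotype equal to run. Of the 23 genes higher in beads 21 were tested in depleted RNA and 16 were called there, and of the 63 lower genes 60 were tested and 29 called. Pomc, Nts, Cartpt, Glp1r, Prdm12, Anxa2, Npy2r, Serpina3n, Stat3, Traf3ip3 and Cd44 were among the genes lower in beads that were not called in depleted RNA, while the 5 glucocorticoid-induced genes and both haemoglobin genes were called in both. For Pomc, depleted levels were lower in ob/ob within vehicle and higher within leptin, as given above.

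**Figure D4:**
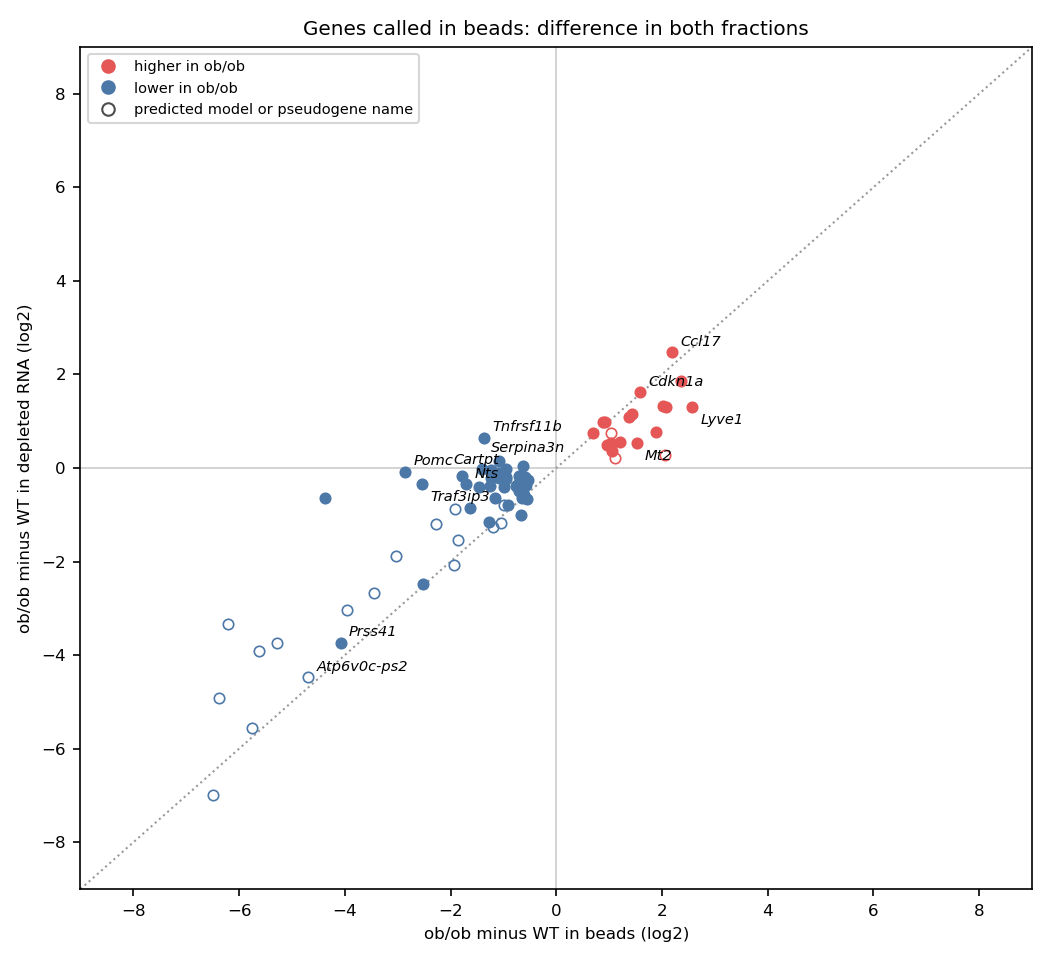
Log2 difference of ob/ob and wild type in beads (x axis) and in depleted RNA (y axis) for the genes called in beads that were tested in both fractions; red points were higher and blue points lower in ob/ob beads, open points are predicted gene models or pseudogene names, and the dotted line marks equal differences. Pomc, Nts and Serpina3n lie near 0 on the depleted axis, and Cdkn1a and Ccl17 lie near the dotted line. The depleted value of Pomc averages a lower level in ob/ob within vehicle and a higher level within leptin.

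The difference between fractions was tested over all 28 libraries with the lysate as a block, where an effect of a run that acts alike on both fractions cancels. Of 19682 genes 2 passed (0.0102%), Nts and Anxa2. The Nts difference in beads exceeded that in depleted RNA by -1.36 (adjusted p = 0.0261), with 16.9 to 25.3 CPM in wild-type and 14.3 to 21.2 CPM in ob/ob depleted libraries, which overlapped. For Anxa2 the value was -1.24 (adjusted p = 0.0261), with depleted levels of 12.4 to 15.1 and 13.1 to 16.2 CPM. Neither call held in any of the 7 fits that left out 1 lysate of 10 h. The value for Pomc was larger, -2.81, but so was its error (SE 1.14, adjusted p = 0.904); its depleted levels spanned 6.56 to 51.0 CPM in ob/ob. For Mt2 it was 0.98 (adjusted p = 0.203).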

How the data were processed

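RNA-seq libraries were made from eGFP-tagged ribosomes of LepRb cells and from the depleted RNA of the same hypothalamic lysates. The authors deposited a table of raw counts per gene, whole numbers for 55487 genes with no normalization. Per the labels' protocols, samples with RIN of 8 or more entered an unstranded poly(A) kit and were sequenced single-end for 50 cycles at 4 libraries per lane. The submitters' processing notes name STAR 2.7.6a and GRCm38.p6, and no source used here names the counting program. Sequencing runs came from a deposited sample sheet. Molecular identifiers are not described, so total counts (21277982 to 42267040 per bead library) bound the counting error only. Gene positions came from a GRCm38 annotation, in which 55227 IDs were found.

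Counts were tested in R 4.3.3 with edgeR 4.0.16 (TMM, robust quasi-likelihood test, two-sided, Benjamini-Hochberg adjustment over all genes tested, threshold 0.05), after dropping genes that did not reach 10 counts in 3 or more libraries. The bead fit held all 14 bead libraries, with a coefficient for each of 6 groups and 8 residual degrees of freedom, because groups of 1 library need the spread of the others. The genotype difference was the mean of the differences within vehicle and within leptin. The fraction contrast used all 28 libraries with the lysate as a block. Bead and depleted library of a lysate come from the same tissue; their deviations from group means correlated with r of 0.11 to 0.468. For a single value, genotype labels can be rearranged within treatment in 12 ways, so an exact permutation test cannot go below 0.0833, and none was run. The bead fit with its averaged genotype contrast was tested on simulated counts that held no run effect. The other fits and contrasts were not.

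The compared libraries, the gene lists and the tests were chosen with earlier results of these data known. Named genes were the 12 largest rises and falls among called genes with a mean of at least 1 CPM and no predicted name whose libraries lay on 1 side within both treatments, a list of key genes, up to 4 members of each list with the smallest p, and genes called between fractions or within 10 Mb of Lep; Plagl1, Tmem176b, Ddit4, Pcsk2 and the pseudogenes were added after their values were seen. Alternatives were DESeq2 1.42.0, limma 3.58.1 with voom, other scalings, no count filter, other sets of libraries and a glial covariate.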

Additional observations from a re-analysis of the deposited data

Results flagged for a closer look

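In 2 genes the genotype difference differed between beads and depleted RNA by the contrast of the 28 libraries. The value for Nts was -1.36 and for Anxa2 -1.24 (log2, adjusted p = 0.0261 for each), and both differences were lower in beads. All 3 ob/ob beads were below all 4 wild-type beads of 10 h in either gene. These bead values entered the contrast, so their order is not separate support for it. Neither call held in any of the 7 fits that left out 1 lysate of 10 h, with library totals or with no replicate block.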

How the results depend on the processing

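The main comparison called 23 higher and 63 lower genes. It called 179 and 215 with no count filter, 74 and 154 with DESeq2, 18 and 44 with limma voom, and 68 and 138 with the glial index as a covariate. With the 7 beads of 10 h only it called 35 and 57, of which 53 were also called in the main fit. It called 68 and 92 with additive terms on those 7 beads, and 38 and 92 without the 3 h lysates rich in pituitary transcripts. With additive terms and the replicate number as a block it called 307 and 240; samples that share a number share only that (r of -0.0234 and 0.225 in the 2 pairs that could be checked). Leaving out 1 library gave 1 to 20 higher and 2 to 47 lower genes, the fewest without the wild-type vehicle bead (1 and 2, from leptin alone) and the ob/ob leptin bead (3 and 10, from vehicle alone). For 41 called values of single genes, 5 of which (Akain1, Rhoj, Tnfaip8l3, Tnfrsf11b and Xlr3a) have no value in the report, 529 of 691 alternative values kept the call, 162 lost it and 0 reversed; the causes were not tested. Pomc was called in 17 of 17.

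Within vehicle 14 genes were called, and 152 with no filter, 49 with DESeq2, 3 with limma voom, 30 with the 7 beads of 10 h only, 32 with the glial index and 1 to 13 with 1 library left out. Within leptin 3 were called, and 140, 53, 1, 14 and 15 under the same settings and 0 to 4 with 1 library left out. The genotype by treatment contrast called 0, and 35 with no filter, 1 with DESeq2, 1 with the 7 beads only and 0 with 1 library left out where it could be formed. The fraction contrast called 2, and 0 with library totals, 109 with no filter, 28 with DESeq2, 0 to 2 with 1 lysate left out, 0 with no replicate block and 8 with the 14 libraries of 10 h only, chosen after seeing the data. Estimates that did not pass the test changed sign in some settings: Crh was -0.022 with no filter and -0.246 to 0.259 with 1 library left out, Lepr -0.287 to 0.107, Timp1 -2.39 to 0.285 and Atf3 -0.991 to 0.0666.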

Other observations

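Among the called entries, 3 of the 23 higher and 19 of the 63 lower genes were predicted models or pseudogenes. The share of such names among all genes tested was not counted, so these counts cannot be read as an excess. Several of the called ones were close to absent in 1 genotype. Gm15459, a processed pseudogene on chromosome 5, was at 75.9 to 105 CPM in the wild-type beads of 10 h and at 0.464, 7.37 and 0.562 CPM in the ob/ob beads, with a difference of -5.55 in depleted RNA as well (adjusted p = 0.00756). Rtraf-ps, on chromosome 3, was at 11.1 to 13.8 CPM and 2.85 to 4.79 CPM (-2.07 in depleted RNA, adjusted p = 4.1e-06). Prss41, a protein-coding serine protease gene on chromosome 17, was at 0.736 to 2.86 and 0.0845 to 0.190 CPM (-4.08 in beads and -3.73 in depleted RNA), and its call in beads was kept in 1 of the 7 fits that left out 1 library. Reads of pseudogenes can be shared with their parent genes, and strain differences in sequence between the genotypes were not tested.

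Lep lies on chromosome 6 (GRCm38, 29060220 to 29073877). Of 111 tested genes within 10 Mb of it 1 was called (0.901%), and of 802 on the rest of chromosome 6 there were 8 (0.998%). Of 17299 elsewhere 77 were called (0.445%). The 8 included Tmem176a (48840919 to 48847071) and Tmem176b (48833818 to 48841496), described above. The 1 near Lep was the pseudogene Atp6v0c-ps2, at 13.4 to 30.8 CPM in wild-type and 0.532 to 1.39 CPM in ob/ob beads (-4.69, adjusted p = 0.00893; -4.47 in depleted RNA).

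Avp, the vasopressin precursor, which marks hypothalamic neurons outside the LepRb populations, was at 13.2 to 37.7 CPM in wild-type beads of 10 h and at 63.0, 159 and 55.6 CPM in ob/ob beads (1.45, adjusted p = 0.219). In depleted RNA it was at 86.8 to 136 and 231 to 355 CPM and passed the test (1.17, adjusted p = 0.0107). Of 10 tested markers of hypothalamic neurons without LepRb, 5 had estimates above 0 in beads, 5 below and 0 were called. Their median was 0.06, and Avp had the largest estimate.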
